A study of Mus musculus with 6 samples.

Results

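The presynaptic release machinery was followed through 49 mouse genes, chosen by symbol as the SNAREs and their recycling factors, complexins, calcium sensors, priming and active zone proteins, Rab3 proteins, vesicle membrane proteins and endocytic proteins. All 49 were found among the 55335 genes of the deposited table, and 45 reached a mean of at least 1 FPKM (fragments relative to transcript length and library depth) in a group and were tested. The libraries were made from primary GABAergic interneurons, which inhibit their targets with GABA, prepared from wild-type C57BL/6 embryos at embryonic day 14.5. There were 3 libraries from cultures given AAV-shbrpf1, an adeno-associated virus named for a short hairpin against Brpf1, and 3 from cultures given the control virus AAV-scramble; infection lasted 12 hours in both groups. Brpf1 is a scaffold subunit of histone acetyltransferase complexes, and the study asked what it does in interneurons of the medial ganglionic eminence. The sources used here do not give the promoter that drives the hairpin, the viral dose or the time of RNA harvest. Since no label ties the 3 libraries of a group to separate cultures or litters, the p-values reflect the spread among these libraries alone, which may be technical.

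At a nerve terminal, transmitter-filled vesicles are held near the active zone, a protein scaffold that joins them to calcium channels. The vesicle SNARE synaptobrevin zippers with syntaxin and SNAP-25 of the plasma membrane, complexins clamp and promote this assembly, and synaptotagmins trigger fusion when calcium enters. NSF and its SNAP adaptors then take the SNARE complexes apart, and dynamin, amphiphysin and synaptojanin return the membrane. In young interneurons these genes are switched on as axons mature, and most are shared with excitatory neurons.

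The cells had the defining genes of GABAergic neurons, and those of glutamatergic ones were at or near 0. Gad1, which makes GABA, lay between 94.1 and 177 FPKM over the 6 libraries, and Slc32a1, the vesicular GABA transporter, between 60.0 and 121 FPKM. Sums over 9 GABAergic marker genes were 685 to 925 FPKM with AAV-shbrpf1 and 649 to 1116 FPKM with AAV-scramble, and over 6 general neuronal genes 703 to 892 FPKM with AAV-shbrpf1 and 636 to 888 FPKM with AAV-scramble. The glutamate transporters Slc17a6 and Slc17a7 reached at most 0.666 and 0.0461 FPKM. One label calls the source neural progenitor cells, and the summed FPKM of 6 radial glia and progenitor genes was 872, 241 and 704 in AAV-shbrpf1 libraries 1, 2 and 3, against 831, 268 and 708 in AAV-scramble libraries 1, 2 and 3. Most of each sum was Fabp7, at 758, 169 and 570 FPKM with AAV-shbrpf1 and 730, 187 and 581 FPKM with AAV-scramble. Hes5 was instead lowest in library 1 of each group, at 5.23 and 3.86 FPKM. Summed levels of the other marker lists overlapped between the viruses: 8 astrocyte genes came to 243 to 414 FPKM with AAV-shbrpf1 and 248 to 446 FPKM with AAV-scramble, and 7 genes of the oligodendrocyte lineage to 140 to 274 FPKM with AAV-shbrpf1 and 121 to 289 FPKM with AAV-scramble. For 5 cycling genes the sums were 30.4 to 66.4 FPKM with AAV-shbrpf1 and 34.6 to 62.6 FPKM with AAV-scramble, and for 5 endothelial and mural genes 1.95 to 25.0 FPKM with AAV-shbrpf1 and 1.60 to 26.8 FPKM with AAV-scramble. Of the latter, Acta2 and Tagln lay at 11.5 to 13.5 FPKM in the libraries numbered 1 and at most 0.746 FPKM in the others. The 5 microglial genes summed to at most 0.825 FPKM, and Cx3cr1 was listed at 0 in each library. Steps between low values put the depth at 13.1 to 21.1 M fragments per library.

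Brpf1 itself had 3.13, 4.58 and 3.78 FPKM in AAV-shbrpf1 libraries 1, 2 and 3, against 3.29, 5.45 and 4.84 FPKM in AAV-scramble libraries 1, 2 and 3. The groups overlapped, although the AAV-shbrpf1 library was 4.88%, 16.0% and 21.8% lower than its same-numbered AAV-scramble library. AAV-shbrpf1 libraries averaged 3.83 ± 0.723 FPKM and AAV-scramble libraries 4.53 ± 1.11 FPKM (SD, n = 3 each), and an exact two-sided permutation test gave p = 0.40, where the smallest p that 3 against 3 allows is 0.1. An exact sign-flip test over the 3 same-numbered pairs gave p = 0.25, the smallest that 3 pairs allow. Neither test could reach 0.05 with so few libraries. A lower level of the targeted gene was therefore not shown by these tests, and directions below are those of the libraries as labelled.

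No release gene passed the test between the viruses. Of 45 genes, 0 had a Benjamini-Hochberg adjusted p under 0.05 with limma on log2(FPKM + 1), where 0% of the 12792 genes tested passed, and the same counts held with the replicate number as a block. At an unadjusted p under 0.05 the count was also 0 in both fits, against 0.180% of all genes without the block and 2.19% with it. The median difference, AAV-shbrpf1 minus AAV-scramble, was -0.02 on the log2 scale over the 45 genes and -0.02 over all genes. Single genes ran from -0.37 for Syt7 to 0.09 for Vamp1, and the ratio of group means ran from 0.716 to 1.11. In bulk RNA such as this, fewer cells of a type and less RNA per cell cannot be told apart.

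How small a difference could have gone unseen depends on whether libraries are compared within their number. With the number as a block, the 95% interval of the difference lay inside 1.5-fold on the log2(FPKM + 1) scale, which is 0.58 log2 units either way, for 43 of 45 release genes (95.6%, against 87.4% of all genes). Without the block it did so for 3 of 45. The interval reached 0.25 to either side of the difference at the median with the block and 0.87 without it. The exceptions under the block on this scale were Syt7 and Rims2. For genes of low level the bound is wider than 1.5-fold in FPKM itself, because 1 is added to each value. Doc2a, with a mean of 1.12 FPKM and a block interval of -0.52 to 0.07, is such a gene.

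**Figure D1:**
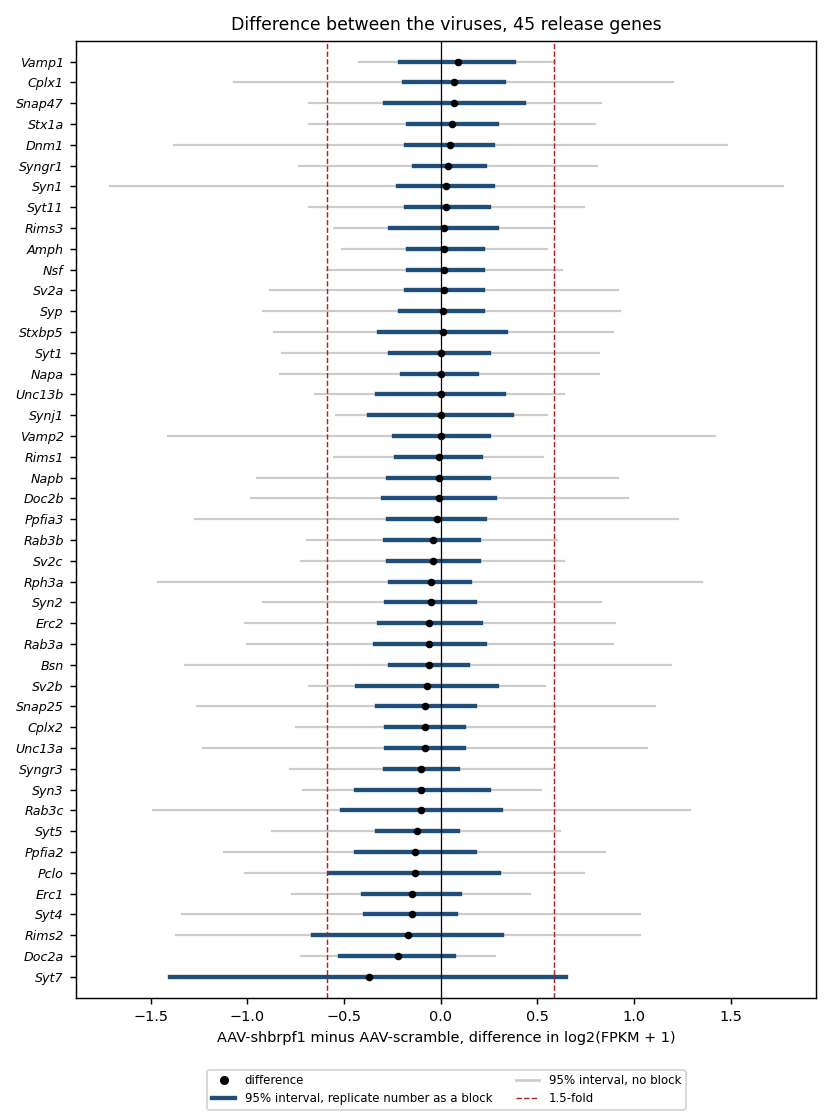
Difference between the viruses for each of the 45 tested release genes, as AAV-shbrpf1 minus AAV-scramble in log2(FPKM + 1) on the horizontal axis. The 95% intervals are from the fit with the replicate number as a block (dark) and without it (grey). Dashed lines mark 1.5-fold on the log2(FPKM + 1) scale. Every interval covers 0, and under the block only those of Syt7 and Rims2 reach past a dashed line.

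Within same-numbered libraries the directions were mixed. Only Syngr1, a synaptogyrin of the vesicle membrane, was higher with AAV-shbrpf1 in 3 of 3 pairs (2.22% of 45, against 7.15% of all genes). Cplx2, Syt5, Doc2a, Unc13a, Rph3a and Syngr3 were lower in 3 of 3 pairs (13.3%, against 11.3% of all genes), and none of these 7 passed the test. For no release gene did the groups fail to overlap, where 0.578% of all genes lay wholly higher with AAV-shbrpf1 and 0.492% wholly lower.

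The replicate number carried nearly all of the variation in these genes. It took 93.4% of the sum of squares of the 45 genes, the virus took 1.06%, and 5.51% remained; over all 12792 genes the shares were 86.9%, 3.62% and 9.50%. By limma's F test with the virus in the model, 36 of 45 release genes differed between numbers (80.0%, against 69.4% of all genes). The widest contrast was between the libraries numbered 2 and those numbered 1, which are 2 libraries each. There, 23 release genes were higher in number 2 (51.1%, against 22.9% of all genes) and 13 were lower (28.9%, against 42.4%). With a library left out, the lower count was smallest without AAV-shbrpf1 library 1 or AAV-scramble library 1, for the release genes as for all genes. Of the 36 genes called here, 23 passed with each single library left out and kept their direction, and 13 missed the threshold in at least 1 of these smaller fits: Snap47, Stx1a, Nsf, Cplx2, Syt1, Unc13b, Rims1, Rims2, Rims3, Pclo, Rab3b, Syngr3 and Sv2c. Over those fits the differences stayed at 0.33 to 0.37 for Syngr3, 0.45 to 0.57 for Nsf and -0.44 to -0.31 for Cplx2, and ran more widely for Snap47 (0.34 to 0.93) and Rims2 (-1.63 to -0.76). The median difference, number 2 minus number 1, was 0.36 over the release genes and -0.25 over all genes. What a number marks is not in the labels.

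Between numbers 3 and 1 the differences were fewer, with 10 release genes higher in number 3 (22.2%, against 15.3% of all genes) and 6 lower (13.3%, against 15.8%). Between numbers 3 and 2, 10 were higher in number 3 (22.2%, against 34.3%) and 19 were lower (42.2%, against 12.9%). Between numbers 3 and 1, without AAV-shbrpf1 library 1 or without AAV-scramble library 1, 0 release genes passed by limma, as did 0% of all genes in those smaller fits, and without AAV-scramble library 3 there were 3 higher and 2 lower (5.15% of all genes passed). The 16 release genes called for this contrast kept their direction with each single library left out. Differences stayed at 0.94 to 1.04 for Rph3a, 0.82 to 0.95 for Bsn and -1.56 to -1.22 for Snap25. The release genes called between numbers 3 and 2 also kept their direction with each single library left out. Some of them missed the threshold in at least 1 of these fits, which hold fewer samples. Differences of number 3 minus number 2 stayed at -1.46 to -1.26 for Syn1 and -1.49 to -1.31 for Dnm1. They ran more widely for Snap47 (-0.89 to -0.29) and Rims2 (0.91 to 1.79). Summed over the 49 genes, the release machinery came to 2391, 3949 and 2467 FPKM in AAV-shbrpf1 libraries 1, 2 and 3, against 2339, 4067 and 2495 FPKM in AAV-scramble libraries 1, 2 and 3. The sum was thus highest in both libraries numbered 2, whichever the virus. As a share of all FPKM it was 0.758%, 1.12% and 0.907% with AAV-shbrpf1, against 0.792%, 1.28% and 0.871% with AAV-scramble. Mitochondrial genes took 21.2% and 21.1% of FPKM in the libraries numbered 1, 13.4% and 13.8% in those numbered 3, and 4.75% and 6.57% in those numbered 2. Those libraries also differed in quality: features of ribosomal RNA loci took 11.9% of implied fragments in AAV-shbrpf1 library 2 and 7.73% in AAV-scramble library 2, against 2.18% to 3.83% in the other 4, and their mitochondrial share was 1.92% and 2.61%, against 5.40% to 8.82%. Marker lists moved between the same numbers, where 22.9% of all genes were higher in number 2 than in number 1 and 42.4% lower. Of 5 cycling genes 0 were higher and 4 lower, of 5 tested progenitor genes 1 was higher and 4 lower, and of 3 tested endothelial and mural genes 0 were higher and 2 lower. Of 8 astrocyte genes 2 were higher and 4 lower, of 7 genes of the oligodendrocyte lineage 5 were higher and 1 lower, of 9 GABAergic genes 4 were higher and 2 lower, and of 6 neuronal genes 3 were higher and 3 lower. The part of these values in the differences between numbers was not tested.

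**Figure D2:**
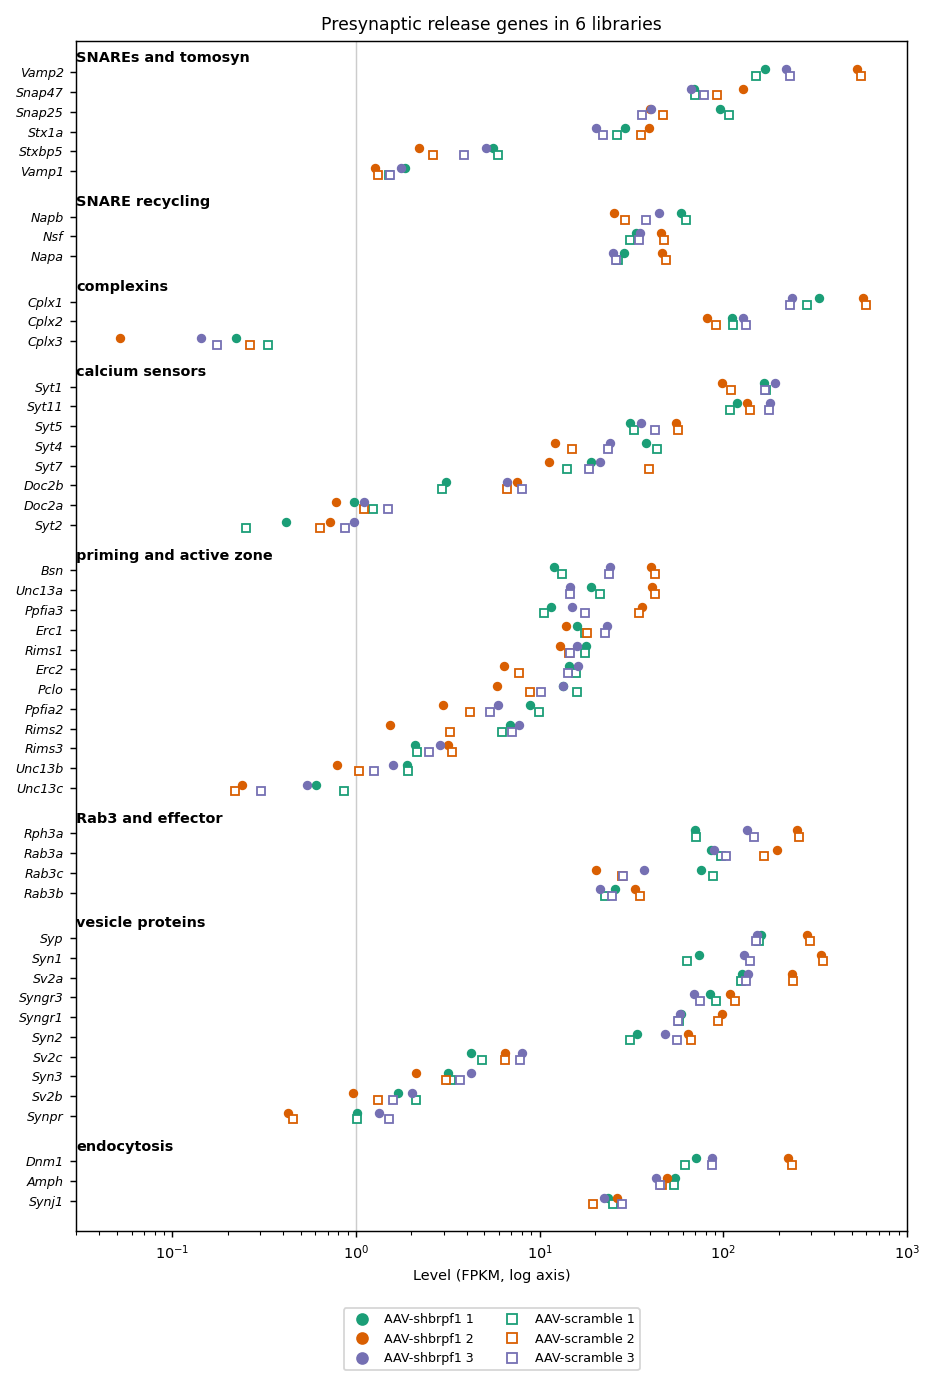
Level of each of the 49 release genes in FPKM on a log axis, grouped by role, with filled circles for AAV-shbrpf1 libraries, open squares for AAV-scramble libraries and a colour for each replicate number; the grey line marks 1 FPKM. For most genes symbols of a colour lie together, as for Syn1 at 342 and 350 FPKM in the libraries numbered 2.

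Among the SNAREs, Vamp2, the synaptobrevin of small synaptic vesicles, was the most abundant, with 169, 533 and 219 FPKM in AAV-shbrpf1 libraries 1, 2 and 3, against 151, 560 and 231 FPKM in AAV-scramble libraries 1, 2 and 3. Its group means, 307 ± 197 and 314 ± 217 FPKM (SD, n = 3 each), differed by 0.00 ± 0.61 (log2, SE), while it was 3.41-fold higher in number 2 than in number 1 on the log2(FPKM + 1) scale used for every fold between numbers (log2 difference 1.77 ± 0.12, adjusted p = 0.00104). Snap25, the plasma membrane partner, went the other way between numbers. It had 96.3, 39.7 and 40.1 FPKM with AAV-shbrpf1 and 107, 47.0 and 36.0 FPKM with AAV-scramble, in the order 1, 2 and 3 that is kept below, and was lower in number 2 than in number 1 (log2 difference -1.21 ± 0.12, adjusted p = 0.00128) and in number 3 than in number 1 (-1.39, adjusted p = 0.00671, up to 0.105 with a library numbered 1 left out). Snap47, a broadly expressed relative of Snap25, had 69.1, 128 and 66.6 FPKM with AAV-shbrpf1, against 70.4, 92.7 and 78.1 FPKM with AAV-scramble. The syntaxin Stx1a had 29.3, 39.5 and 20.3 FPKM with AAV-shbrpf1, against 26.3, 35.6 and 22.1 FPKM with AAV-scramble, and differed between viruses by 0.06 ± 0.32. Vamp1, a synaptobrevin of brainstem, spinal and fast-firing neurons, stayed between 1.27 and 1.84 FPKM and had the highest of the 45 virus differences at 0.09 ± 0.22. Stxbp5 (tomosyn), which binds syntaxin and holds SNARE assembly back, was lower in number 2 than in number 1 (log2 difference -0.99 ± 0.16, adjusted p = 0.00371).

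The coding sequences of Vamp2, Snap25, Syn1 and Rab3c are shown because these genes are among those that differed most, in opposite directions, between numbers 2 and 1, and because these differences are set against base composition further on. The opening 90 bases of the coding sequence of the longest protein-coding transcript in GENCODE M21 (GRCm38) read, 5′ to 3′ from the start codon, with no letters singled out, as follows.
Vamp2: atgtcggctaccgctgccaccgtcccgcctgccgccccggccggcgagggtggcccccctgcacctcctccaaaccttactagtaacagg
Syn1: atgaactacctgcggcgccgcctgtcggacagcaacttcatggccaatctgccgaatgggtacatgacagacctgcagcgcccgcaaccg
Snap25: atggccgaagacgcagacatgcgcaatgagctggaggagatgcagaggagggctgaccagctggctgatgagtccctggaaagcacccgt
Rab3c: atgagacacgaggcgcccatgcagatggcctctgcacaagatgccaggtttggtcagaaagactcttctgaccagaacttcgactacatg

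G and C made up 70.0% of these 90 bases in Vamp2 and 61.1% in Syn1, both higher in number 2, and 60.0% in Snap25 and 52.2% in Rab3c, both lower. Over the whole coding sequence the shares were 58.0% in Vamp2, 60.7% in Syn1, 51.1% in Snap25 and 48.3% in Rab3c. In the table the genes lie at chr11:69088490-69092384 on the plus strand (Vamp2), chrX:20860511-20921004 on the minus strand (Syn1), chr2:136713453-136782428 on the plus strand (Snap25) and chr13:110054187-110280996 on the minus strand (Rab3c), in coordinates of GRCm38.

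The recycling factors moved between numbers in both directions, and none passed the test between viruses. Nsf, the ATPase that unwinds spent SNARE complexes, had 33.5, 45.5 and 35.2 FPKM with AAV-shbrpf1, against 31.1, 47.3 and 34.9 FPKM with AAV-scramble. Its adaptor Napa (alpha-SNAP) was 1.69-fold higher in number 2 than in number 1 (adjusted p = 0.00187), whereas the brain-enriched adaptor Napb (beta-SNAP) was at 0.462 of the number 1 level (adjusted p = 0.00152). The ratio of Napa to Napb was 0.488, 1.82 and 0.560 with AAV-shbrpf1, against 0.429, 1.66 and 0.687 with AAV-scramble, so that Napa exceeded Napb in both libraries numbered 2 and in no other.

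Of the complexins, Cplx1 was the most abundant of all 49 genes, with 332, 575 and 236 FPKM with AAV-shbrpf1, against 285, 598 and 231 FPKM with AAV-scramble. The group means of 381 ± 174 and 371 ± 198 FPKM (SD, n = 3 each) differed by 0.07 ± 0.49. Cplx2 had 111, 81.2 and 128 FPKM with AAV-shbrpf1, against 113, 91.2 and 132 FPKM with AAV-scramble. Both libraries numbered 2 were thus highest for Cplx1 (1.90-fold above number 1, adjusted p = 0.00220) and lowest for Cplx2 (0.772 of number 1, adjusted p = 0.0195). Cplx3, known from retinal ribbon synapses and some cortical neurons, stayed below the filter at 0.0516 to 0.331 FPKM.

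The calcium sensors held the 2 largest virus differences of the 45 genes, and neither passed the test. Syt1, the fast sensor of most forebrain synapses, had 166, 97.8 and 192 FPKM with AAV-shbrpf1, against 170, 110 and 168 FPKM with AAV-scramble. Syt7, a slower sensor of higher calcium affinity, had 18.9, 11.2 and 21.3 FPKM with AAV-shbrpf1, against 14.0, 39.2 and 18.6 FPKM with AAV-scramble. Its difference of -0.37 ± 0.42 (95% interval -1.36 to 0.61, adjusted p = 1.000) rested on the libraries numbered 2, where the ratio of AAV-shbrpf1 to AAV-scramble was 0.286, against 1.35 and 1.15 in numbers 1 and 3. Without both libraries numbered 2 the difference was 0.30 under the block, and without AAV-scramble library 2 alone it was 0.04. Syt7 was among the 9 release genes not called between numbers by the F test, where its libraries numbered 2 lay apart: the difference of number 2 minus number 1 ran from -0.65 to 1.37 with a library left out, and passed both without AAV-shbrpf1 library 2 and without AAV-scramble library 2. In the table it overlaps a gene on each strand.

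Doc2a, a C2-domain protein of spontaneous and asynchronous release, came next. It had 0.972, 0.780 and 1.11 FPKM with AAV-shbrpf1, against 1.23, 1.11 and 1.5 FPKM with AAV-scramble, and differed by -0.22 ± 0.21 (adjusted p = 1.000). The AAV-shbrpf1 library was lower in each pair, at 0.789, 0.704 and 0.741 of its partner, but the highest AAV-shbrpf1 library and the lowest AAV-scramble library were both at 1.11 FPKM, and the library with fewest held only about 26 fragments of this gene. Its relative Doc2b had 3.07, 7.53 and 6.62 FPKM with AAV-shbrpf1, against 2.93, 6.60 and 8.0 FPKM with AAV-scramble, and was higher than number 1 in number 2 (2.01-fold, adjusted p = 0.00227) and in number 3 (log2 difference 1.05, adjusted p = 0.00899, up to 0.118 with a library left out). Syt5 had 31.0, 55.4 and 35.5 FPKM with AAV-shbrpf1, against 32.8, 56.5 and 42.6 FPKM with AAV-scramble. Syt4 and Syt11, synaptotagmins that bind calcium weakly or not at all, behaved unlike each other between numbers. Syt4 had 37.7, 12.1 and 24.1 FPKM with AAV-shbrpf1, against 43.7, 15 and 23.5 FPKM with AAV-scramble, and was at 0.348 of number 1 in number 2 (log2 difference -1.52 ± 0.12, adjusted p = 0.00104). Syt11 had 119, 135 and 180 FPKM with AAV-shbrpf1, against 108, 140 and 177 FPKM with AAV-scramble, and passed for number 3 against number 1 (log2 difference 0.65, adjusted p = 0.0122, up to 0.146 with a library left out) but not for number 2 against number 1 (0.28 ± 0.11, adjusted p = 0.0599). Syt2, the fast sensor of caudal and parvalbumin-type synapses, stayed below the filter at 0.253 to 0.975 FPKM.

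Priming and active zone genes were present at lower levels, with means over the 6 libraries of at most 26.0 FPKM. Of the 11 tested, 6 were lower in number 2 than in number 1 (against 42.4% of all genes) and 4 were higher (against 22.9%). Bsn (Bassoon) and Pclo (Piccolo) are paired giant scaffolds of the active zone. Bsn had 11.9, 40.3 and 24.2 FPKM with AAV-shbrpf1, against 13.2, 42.4 and 23.8 FPKM with AAV-scramble, and was 3.13-fold higher in number 2 than in number 1 (adjusted p = 0.00104). Pclo had 13.4, 5.84 and 13.4 FPKM with AAV-shbrpf1, against 16.0, 8.80 and 10.2 FPKM with AAV-scramble, and was at 0.523 of number 1 (adjusted p = 0.0115). The ratio of Pclo to Bsn was accordingly 1.13, 0.145 and 0.553 with AAV-shbrpf1, against 1.21, 0.208 and 0.430 with AAV-scramble.

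The priming factors showed the same split. Unc13a (Munc13-1), the main vesicle priming factor of excitatory terminals, had 18.9, 40.7 and 14.6 FPKM with AAV-shbrpf1, against 21.3, 42.6 and 14.7 FPKM with AAV-scramble. It was 2.02-fold higher in number 2 than in number 1 (adjusted p = 0.00116) and differed between viruses by -0.08 ± 0.49. Unc13b, a second Munc13 of forebrain terminals, was at 0.659 of number 1 in number 2 (adjusted p = 0.0205), and Unc13c, the Munc13 of cerebellum, stayed below the filter at 0.220 to 0.862 FPKM. Rims2, which tethers calcium channels and vesicles together with Rims1, had 6.86, 1.53 and 7.72 FPKM with AAV-shbrpf1, against 6.21, 3.26 and 7.03 FPKM with AAV-scramble. Both libraries numbered 2 were lowest (log2 difference from number 1 -1.20 ± 0.24, adjusted p = 0.00739), and AAV-shbrpf1 library 2 was at 0.469 of AAV-scramble library 2. Among the ELKS proteins, Erc2 was lower in number 2 than in number 1 (log2 difference -1.0 ± 0.13, adjusted p = 0.00187), and Erc1 was not (-0.08 ± 0.12, adjusted p = 0.612). Erc1 had 15.9, 13.9 and 23.1 FPKM with AAV-shbrpf1, against 17.6, 18.0 and 22.6 FPKM with AAV-scramble, and its libraries overlapped. Rims1 (12.9 to 17.9 FPKM) and Rims3 (2.09 to 3.33 FPKM) missed the F test, though the single contrast of number 2 with number 1 passed for both, lower in Rims1 (-0.37, adjusted p = 0.0282) and higher in Rims3 (0.44, adjusted p = 0.0311). Of the liprins, which organise the active zone, Ppfia3 was 3.03-fold higher in number 2 than in number 1 (adjusted p = 0.00104) and Ppfia2 was at 0.435 (adjusted p = 0.00180).

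The Rab3 proteins, small GTPases that mark vesicles for release, included the release gene furthest down in number 2. Rab3c had 75.4, 20.2 and 37.1 FPKM with AAV-shbrpf1, against 87.3, 28.1 and 28.5 FPKM with AAV-scramble, and its log2 difference, number 2 minus number 1, was -1.73 ± 0.20 (adjusted p = 0.00154). The level was also lower in number 3 than in number 1 (log2 difference -1.29, adjusted p = 0.0113, up to 0.127 with a library numbered 1 left out). Rab3a had 86.1, 195 and 89.0 FPKM with AAV-shbrpf1, against 97.6, 167 and 103 FPKM with AAV-scramble, and was 1.96-fold higher in number 2 than in number 1 (adjusted p = 0.00250). Rph3a (rabphilin), an effector that binds Rab3 and calcium, had 69.9, 252 and 135 FPKM with AAV-shbrpf1, against 70.6, 257 and 147 FPKM with AAV-scramble. Rab3b lay at 21.3 to 35.1 FPKM and was 1.39-fold higher in number 2 than in number 1 (adjusted p = 0.0159). Same-numbered libraries of Rph3a lay within 0.920 to 0.991 of each other, while number 2 was 3.59-fold above number 1 (adjusted p = 0.00104).

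Of the vesicle membrane proteins, 7 of 9 tested were higher in number 2 than in number 1 (against 22.9% of all genes), 0 were lower (against 42.4%) and 2 did not pass. Syn1, which tethers vesicles to the cytoskeleton, had 73.7, 342 and 130 FPKM with AAV-shbrpf1, against 63.2, 350 and 139 FPKM with AAV-scramble. Its means of 182 ± 142 and 184 ± 149 FPKM (SD, n = 3 each) differed between viruses by 0.03 ± 0.74, whereas number 2 was 5.01-fold above number 1 (log2 difference 2.33 ± 0.12, adjusted p = 0.00104), the highest of the 45. In the annotation Syn1 overlaps Araf, Gm15029, Mir5617 and Timp1, 3 of them on the opposite strand, and reads of these could not be told apart if strand was not used. Syn2 was 2.00-fold higher (adjusted p = 0.00149), and Syn3, the synapsin of immature neurons, had 3.15, 2.11 and 4.22 FPKM with AAV-shbrpf1, against 3.30, 3.08 and 3.70 FPKM with AAV-scramble, with no difference between numbers past the threshold. Syp (synaptophysin), which binds synaptobrevin on the vesicle, was the most abundant of the role, with 160, 284 and 153 FPKM with AAV-shbrpf1, against 156, 295 and 150 FPKM with AAV-scramble. Sv2a, the vesicle glycoprotein bound by levetiracetam, had 127, 237 and 136 FPKM with AAV-shbrpf1, against 124, 240 and 133 FPKM with AAV-scramble. For both genes the library numbered 2 was the highest of its group. The synaptogyrin Syngr1 had 58.6, 97.8 and 57.7 FPKM with AAV-shbrpf1, against 57.3, 93.4 and 56.5 FPKM with AAV-scramble. Its relative Syngr3 had 84.5, 109 and 68.8 FPKM with AAV-shbrpf1, against 91.0, 115 and 74.7 FPKM with AAV-scramble. The other SV2 proteins were far lower, Sv2c at 4.25 to 8.04 FPKM and Sv2b at 0.964 to 2.12 FPKM. Synpr (synaptoporin) lay at 0.424 to 1.52 FPKM, with group means just under the filter of 1 FPKM.

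The promoter of Syn1 is shown because Syn1 differed most between numbers and has a cyclic AMP response element there. RefSeq's GRCm38.p6 table gives, for the 250 bases before its transcription start on the minus strand, the following sequence, 5′ to 3′, with the element in capitals.
Syn1, chrX:20920919-20921168: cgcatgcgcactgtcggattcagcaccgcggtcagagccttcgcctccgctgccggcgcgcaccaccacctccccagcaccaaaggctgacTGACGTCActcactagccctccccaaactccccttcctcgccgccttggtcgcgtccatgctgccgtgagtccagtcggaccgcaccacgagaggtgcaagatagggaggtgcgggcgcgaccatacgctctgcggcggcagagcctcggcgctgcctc

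These bases are 68.0% G and C, the element begins at position -159, and the start that the deposited table gives for the gene lies within them. Promoters were found for 39 of the 49 genes, each from 250 bases before to 50 after the start. The motif TGACGTCA, which reads the same on both strands, was in 2 of 39 (Napa and Syn1; 5.13%, against 2.03% of 27025 genes). The motif GGGCGG on either strand was in 32 of 39 (82.1%, against 38.2%), and TATAAA on either strand in 2 of 39 (Rab3b and Sv2b; 5.13%, against 15.7%). The 27025 genes outnumber the 12792 tested, so they include genes below the level filter, and shares among the tested genes alone are not given. The motif counts are letter matches in a window and were not tested.

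The endocytic genes closed the cycle with 1 of 3 differing between numbers by the F test (against 69.4% of all genes). Dnm1, the dynamin that cuts vesicles from the membrane, had 71.3, 225 and 87.2 FPKM with AAV-shbrpf1, against 62.0, 237 and 86.2 FPKM with AAV-scramble, and was 3.44-fold higher in number 2 than in number 1 (adjusted p = 0.00104). Amph (amphiphysin), which brings dynamin to the neck of the vesicle, had 54.8, 49.6 and 43.2 FPKM with AAV-shbrpf1, against 53.7, 46.4 and 45 FPKM with AAV-scramble. Synj1, the phosphatase that uncoats vesicles, had 23.4, 26.3 and 22.3 FPKM with AAV-shbrpf1, against 25.2, 19.5 and 27.9 FPKM with AAV-scramble. Both stayed within a narrow range over the 6 libraries, and neither passed a test between numbers or viruses.

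Base composition separated the genes that were higher in number 2 from those that were lower. Across the 45 release genes, the log2 difference of number 2 minus number 1 correlated with the GC content of the longest transcript at r = 0.79, as it did at 0.74 across 12785 genes; these are correlations across genes of the same 6 libraries, and genes are not independent replicates. Of 24 release genes over 50% GC, 19 were higher and 1, Cplx2, was lower, with a median of 0.86 (all genes over 50% GC: 43.5% higher, 10.8% lower, median 0.31). Of the 21 at or under 50% GC, 12 were lower and 4, Nsf, Rab3b, Syp and Sv2c, were higher, with a median of -0.60 (all such genes: 72.6% lower, 3.17% higher, median -0.79). The GC content of coding sequences alone gave r = 0.76, and that of the bases after the stop codon 0.74. The longest transcript is not the longest coding one in Syp (56.6% GC in the coding one, 45.4% in the longest), Vamp1 (52.6% and 47.0%), Snap25 (43.4% and 38.7%), Syn3 (46.5% and 45.3%) and Ppfia3 (60.5% and 60.9%) among the tested genes, so Syp and Vamp1 would change sides at 50%.

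**Figure D3:**
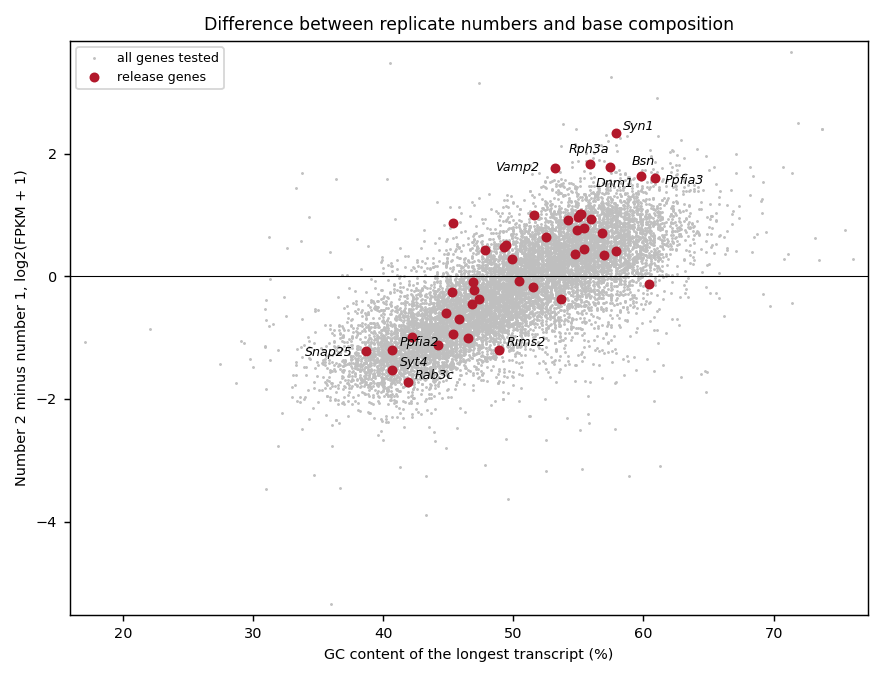
Difference in log2(FPKM + 1) between the libraries numbered 2 and those numbered 1 (vertical axis) against the GC content of the longest transcript in percent (horizontal axis), for all tested genes in grey and the 45 release genes in red. Both clouds slope upward, with r = 0.79 for the release genes, from Rab3c at -1.73 to Syn1 at 2.33.

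**Figure D4:**
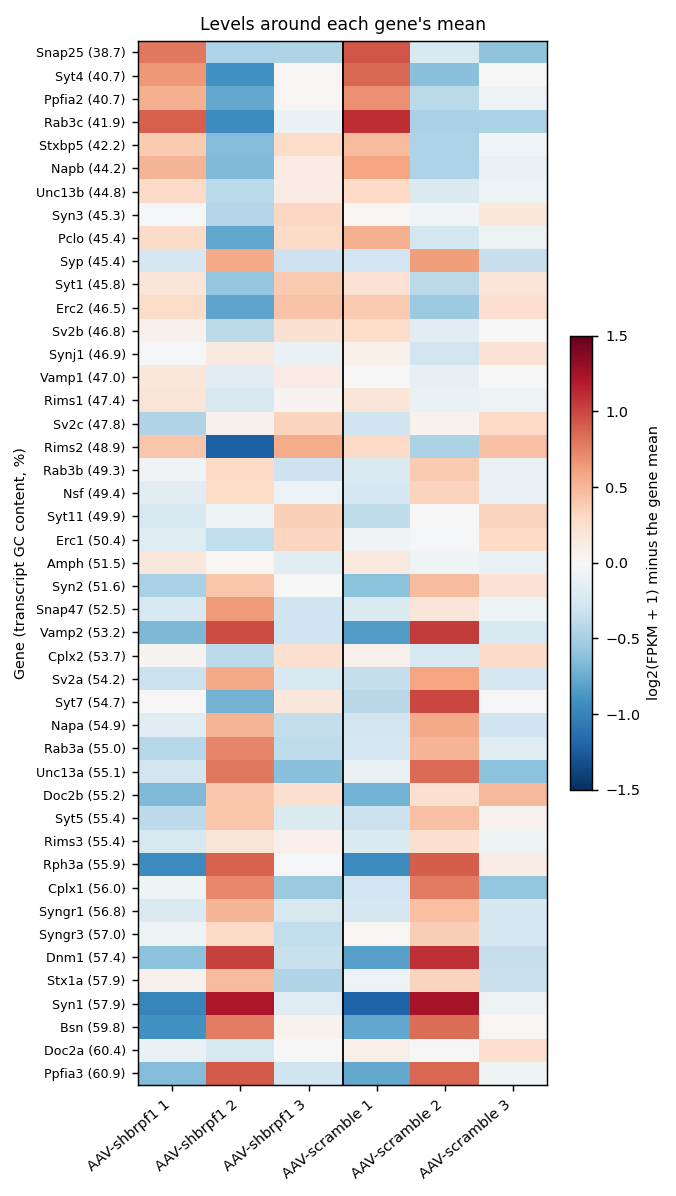
Level of the 45 tested release genes in each library as log2(FPKM + 1) minus the gene's mean, in rows ordered from low GC content (top) to high (bottom), with red for above and blue for below the mean. In both libraries numbered 2 the upper rows are mostly blue and the lower rows mostly red, and same-numbered columns of the viruses look alike.

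When the trend with GC content was removed from each library, a step added after seeing the data, part of the pattern stayed. The F test then called 30 of 45 release genes (against 42.5% of all genes), with 20 higher in number 2 than in number 1 (against 18.1%) and 6 lower (against 16.9%). The median was 0.34 over the release genes and -0.01 over all genes. After this step the difference still correlated with GC content at 0.30 over the release genes, against -0.04 over all genes. Syn1 kept a difference of 1.78, Rph3a of 1.42, Dnm1 of 1.27, Rab3c of -0.63 and Syt4 of -0.34. Directions turned for 7 genes that had been called, namely Snap25 (to 0.10), Stx1a, Stxbp5, Syt1, Unc13b, Rims1 and Syngr3. Between viruses, the pair difference, AAV-shbrpf1 minus AAV-scramble, correlated with GC content at 0.38, 0.22 and -0.61 in pairs 1, 2 and 3 over the release genes, and at 0.15, 0.27 and -0.28 over all genes.

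Balances within gene families followed the replicate number more than the virus in their values, and no ratio was tested between numbers. Of 18 ratios of a family member to its relative, none had groups that failed to overlap, and exact two-sided permutation tests gave p of 0.40 or more (adjusted p = 1.00 for each). With a smallest possible p of 0.1 before adjustment, this test could not pass and does not show that the ratios were alike. Within same-numbered libraries, 3 ratios were higher with AAV-shbrpf1 in 3 of 3 pairs (Vamp1 to Vamp2, Cplx1 to Cplx2 and Erc2 to Erc1) and 4 were lower (Syn2 to Syn1, Synpr to Syp, Doc2a to Doc2b and Syngr3 to Syngr1), where the smallest sign-flip p that 3 pairs allow is 0.25. The widest range was that of Ppfia2 to Ppfia3, at 0.772, 0.0823 and 0.401 with AAV-shbrpf1, against 0.946, 0.120 and 0.304 with AAV-scramble, an 11.5-fold span. The narrowest was Syngr3 to Syngr1, at 1.44, 1.12 and 1.19 with AAV-shbrpf1, against 1.59, 1.23 and 1.32 with AAV-scramble, a 1.42-fold span. Its AAV-shbrpf1 libraries were at 0.907, 0.905 and 0.902 of their same-numbered AAV-scramble libraries, the most even of these pair ratios. Cplx1 exceeded Cplx2 in each library, with a ratio of 3.00, 7.07 and 1.85 with AAV-shbrpf1, against 2.52, 6.55 and 1.75 with AAV-scramble. Since relatives can share sequence, reads assigned to the wrong one would move such ratios. The relatives also differed in transcript GC content, by -20.2 percentage points for Ppfia2 minus Ppfia3 and 0.2 for Syngr3 minus Syngr1. Rims2 to Rims1, with a gap of 1.5, spanned 4.09-fold, and Cplx1 to Cplx2, with a gap of 2.3, spanned 4.04-fold. The part of GC content in these spans was not tested.

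**Figure D5:**
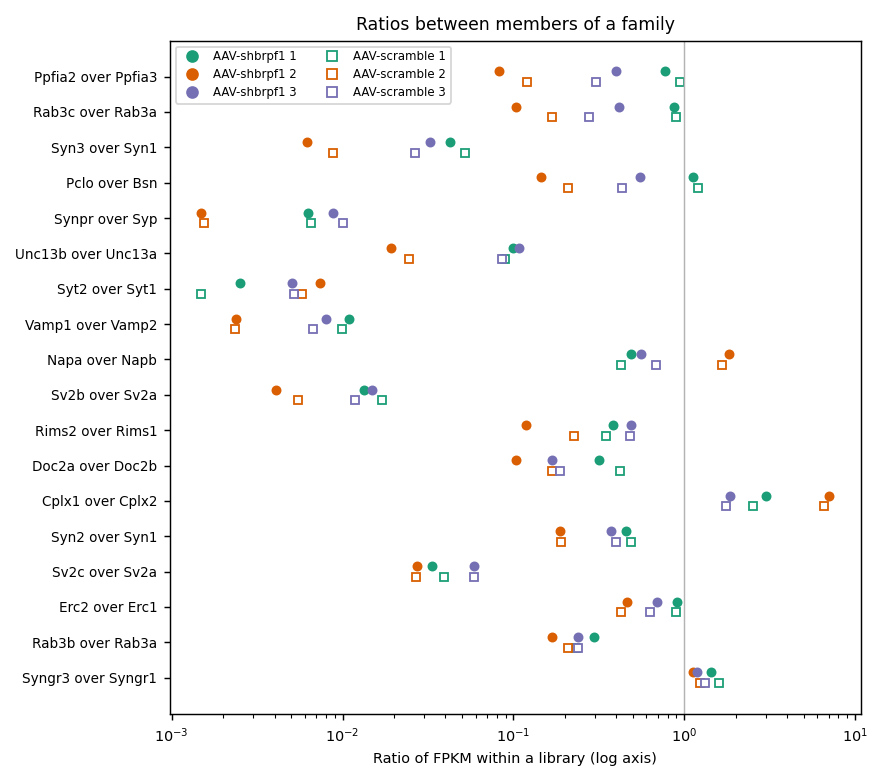
Ratio of FPKM between 2 members of a gene family within each library, on a log axis, with filled circles for AAV-shbrpf1, open squares for AAV-scramble and a colour for each replicate number; the grey line marks equal levels. The libraries numbered 2 stand apart for most ratios, as for Ppfia2 to Ppfia3 at 0.0823 and 0.120.

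The rest of the release pathway and the genes that load GABA gave the same count between viruses. Of 77 further genes for SNARE assembly, vesicle docking and priming, adhesion across the synapse and vesicle retrieval, 76 were found and 62 tested, and 0 passed; at an unadjusted p under 0.05 with the block, 1 was higher (Snapin, 0.40) and 1 lower (Pacsin1, -0.28), both with an adjusted p of 1.000. Between numbers the F test called 52 of these 62 (against 69.4% of all genes). In number 2, 17 were higher than in number 1 (against 22.9% of all genes) and 29 were lower (against 42.4%). Their median was -0.36, against -0.25 for all genes. Sncb (beta-synuclein) averaged 79.5 ± 44.1 FPKM with AAV-shbrpf1 and 75.5 ± 40.9 FPKM with AAV-scramble, and Apba1 (Mint1), an adaptor of the active zone, 53.5 ± 18.9 FPKM with AAV-shbrpf1 and 52.3 ± 19.2 FPKM with AAV-scramble (SD, n = 3 each). Both were among the 4 most abundant of the further release genes; Snapin and Pacsin1 were named after their values were seen. All 6 genes of GABA synthesis, vesicle loading, reuptake and breakdown were tested and 0 passed: Gad1 averaged 117 ± 34.3 FPKM with AAV-shbrpf1 and 126 ± 44.6 FPKM with AAV-scramble, and Slc32a1 averaged 85.0 ± 31.2 FPKM with AAV-shbrpf1 and 83.4 ± 31.5 FPKM with AAV-scramble.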

How the data were processed

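RNA of 6 libraries, 3 with AAV-shbrpf1 and 3 with AAV-scramble, was measured per gene. The authors deposited 1 table of values per gene, read here as FPKM from their size and steps since the header names no unit, and the submitters' processing notes name FastQC, StringTie and DESeq2 without roles or versions. The notes name the build mm9, but 54899 of 55154 identifiers found in GENCODE M21 have its GRCm38 start and end. The sources used here do not state the aligner or whether strand was used; 36 of the 49 release genes overlap another gene, 32 of them on the opposite strand. Depth was estimated from low-value steps in 11673 single-exon genes. Only 40.1% to 44.1% of low values lay on whole steps (tolerance 0.03), and a count test was therefore not run; depth behind a value is an estimate, and 41 of 49 genes held at least 100 fragments in every library.

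The 12792 genes whose mean reached 1 FPKM in either group were tested as log2(FPKM + 1), a scale that makes changes of low genes look smaller. The two-sided tests used limma 3.58.1 (R 4.3.3) with its trend option and Benjamini-Hochberg adjustment over all genes, and were checked on simulated data. The model had the virus alone, or the virus with the replicate number as a block; number contrasts had the virus in the model. Deviations from group means of same-numbered libraries correlated at 0.866, 0.829 and 0.574 (other numbers: 0.00199 or less). The libraries were paired on this basis, since no label states a pairing. Taking deviations from a mean of 3 libraries itself lowers the correlations with other numbers. Values per library are given for Brpf1, the members of smallest p or largest difference per comparison and direction and the most abundant of each role, and for some further members by role; other members are given by range. Some genes outside the members that this rule would name are not reported here. The members and lists were chosen with earlier results of these data known. Alternatives were another pseudocount, filter, scaling and variance model, leaving out each library, and removal of a GC trend (lowess span 0.3).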

Additional observations from a re-analysis of the deposited data

How the results depend on the processing

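No release gene passed the test between viruses under any of the alternatives run: a pseudocount of 0.1 FPKM, no filter or a filter over all 6 libraries, rescaling over protein-coding genes, quantile normalization, limma without its trend, the replicate block (count 0), each library left out, or the GC trend removed. The direction of small virus differences turned with single libraries: leaving out 1 library gave -0.28 to 0.47 for Cplx1, -0.45 to 0.61 for Dnm1, -0.23 to 0.24 for Snap47, -0.16 to 0.30 for Stx1a, -0.28 to 0.10 for Syn3, -0.20 to 0.28 for Syngr1, -0.27 to 0.06 for Syngr3, -0.52 to 0.26 for Syt4, -0.36 to 0.07 for Syt5 and -0.68 to 0.04 for Syt7. Under the replicate block, directions turned without number 1 for Cplx1 (-0.01) and Dnm1 (-0.03), and without number 2 for Snap47 (-0.13), Syn3 (0.05) and Syt7 (0.30). The Brpf1 difference in FPKM ran from -1.31 to -0.236.

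Between numbers, the F test called 28 to 38 of 45 genes over the alternatives. Of all genes, 69.4% passed it in the main fit and 42.5% with the GC trend removed. The count lower in number 2 than in number 1 was 13; it was 6 with the GC trend removed, and 8 to 14 with a library left out, the lowest value without AAV-shbrpf1 library 1 or AAV-scramble library 1. Those fits hold fewer samples. The count higher was 23 (against 22.9% of all genes), and 20 with the GC trend removed (against 18.1%). Snap25 turned to 0.10 with the GC trend removed, and the cause was not tested beyond that construction. No called gene changed direction under rescaling or quantile normalization, which put the median of all genes, number 2 minus number 1, at -0.33 and 0.03. Depth limits Doc2a and the 4 genes below the filter most.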
